A study of Mus musculus with 6 samples.

Results

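The erythroid genes described here were 7 genes of the red blood cell lineage, namely Alas2, Slc4a1, Ermap, Epor, Klf1, Gata1 and Rhag. Their members were all probe sets annotated with exactly 1 of these symbols, which gave 9 of the 22626 probe sets on the arrays, 3 of them for Slc4a1 and 1 for each other gene. They are 7 of the 12393 genes that the arrays measure with such probe sets. RNA was taken from the cochlea, where sound is turned into nerve signals, and the donors were DBA/2J males, a mouse strain known for progressive hearing loss. The 2 groups were 3 samples from mice aged 7 weeks and 3 samples from mice aged 36 weeks, and the labels name no treatment or introduced allele in either group. Each sample was hybridised to 1 single-colour Affymetrix array. The labels do not say whether a sample came from 1 animal or from pooled animals, so p-values measure only the spread between these samples, which may be technical. The study compared the ages through all pairs of samples, and here the comparison sets the erythroid genes beside the granulocyte genes of the bone marrow, which were far higher at 36 weeks.

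Red cells form in the bone marrow, where the hormone erythropoietin acts on its receptor, Epor, to keep the precursors alive. The transcription factors Gata1 and Klf1 then switch on the genes of haemoglobin, of haem synthesis and of the cell membrane. Alas2 is the enzyme that starts haem synthesis in these precursors. Slc4a1, also called band 3, exchanges chloride and bicarbonate and anchors the membrane skeleton. Rhag is a membrane channel protein of the Rh complex, and Ermap is an erythroid membrane protein that carries a blood group antigen. Bone near the inner ear can hold marrow, where granulocytes, platelets and red cells are all made.

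Slc4a1 and Ermap fell, with log2 differences (36 weeks minus 7 weeks, ± its standard error, from 3 arrays at either age) of -1.89 ± 0.13 and -1.02 ± 0.19. The Slc4a1 value is of its brightest probe set, 1434502_x_at, and a second, 1416464_at, had -0.59 ± 0.14. Epor rose by 0.40 ± 0.12. Alas2, Klf1 and Gata1 had log2 differences of 0.24, 0.37 and 0.00 that did not pass the threshold. Rhag was too dim to be tested. Values were tested as log2(signal + 50) with limma over all 13575 probe sets whose mean signal was above the 40th percentile, and a probe set passed when its p, adjusted by Benjamini and Hochberg's method, was under 0.05. Of the 9 erythroid probe sets 7 passed the filter, and of these 1 was called higher and 3 lower. Each of the 7 was above the cut of 593.6 at both ages, the lowest mean being 769.2. Over all tested probe sets 16.7% were called higher and 17.7% lower, 34.4% in all. In bulk tissue fewer cells of a type and less RNA per cell cannot be told apart.

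**Figure D1:**
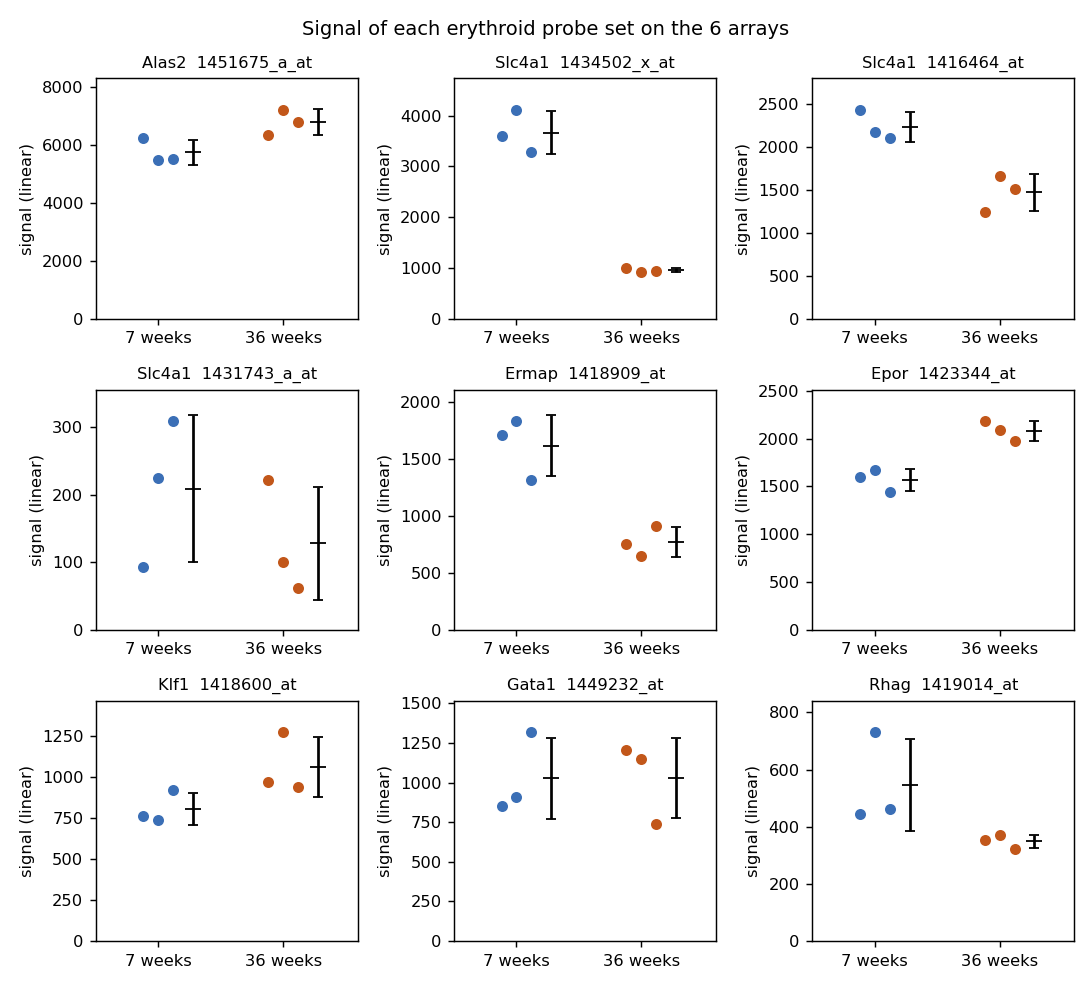
Linear signal (vertical axis, arbitrary units, from 0) of each of the 9 erythroid probe sets on the 3 arrays of 7 weeks (blue) and the 3 of 36 weeks (orange), with the mean and SD in black. The arrays of 36 weeks lie below those of 7 weeks for the brighter 2 Slc4a1 probe sets, Ermap and Rhag, and above them for Alas2, Epor and Klf1.

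The promoters of 3 members are shown because they belong to a gene that fell (Ermap), a gene that rose (Epor) and the haem enzyme that did not pass (Alas2). Each is the 250 bases before the start of the gene, on the gene's own strand, taken from RefSeq in build GRCm38.p6. Ermap lies on the minus strand at chr4:119189996-119190245, Epor on the minus strand at chr9:21963577-21963826 and Alas2 on the plus strand at chrX:150547167-150547416. Capitals mark GATA motifs (AGATAA or AGATAG, and likewise TGATAA or TGATAG, on either strand) and the CACC box (CCNCNCCC on either strand), the DNA words known to be bound by GATA factors and by Klf1.
Ermap: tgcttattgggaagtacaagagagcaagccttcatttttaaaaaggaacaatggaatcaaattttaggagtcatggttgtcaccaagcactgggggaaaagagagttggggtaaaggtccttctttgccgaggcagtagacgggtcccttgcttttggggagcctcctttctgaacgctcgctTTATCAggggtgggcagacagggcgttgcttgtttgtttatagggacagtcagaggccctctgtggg
Epor: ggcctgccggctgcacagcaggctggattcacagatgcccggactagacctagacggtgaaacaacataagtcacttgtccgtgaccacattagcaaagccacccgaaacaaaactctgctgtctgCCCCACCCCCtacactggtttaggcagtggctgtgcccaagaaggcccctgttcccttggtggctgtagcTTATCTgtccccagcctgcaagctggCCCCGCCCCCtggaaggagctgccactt
Alas2: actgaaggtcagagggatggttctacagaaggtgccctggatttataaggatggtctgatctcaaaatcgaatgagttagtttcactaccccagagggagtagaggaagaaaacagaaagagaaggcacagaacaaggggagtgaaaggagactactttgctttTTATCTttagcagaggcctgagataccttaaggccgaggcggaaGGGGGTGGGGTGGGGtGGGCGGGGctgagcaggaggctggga

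RefSeq promoters were matched for 6 of the 7 members, all but Slc4a1. A GATA motif was present in 5 of these 6, against 26.5% of all 32851 promoters of the table. Each of the 5 held 1 such site. It began 54 bases before the start in Epor, 67 in Ermap, 80 in Klf1, 86 in Alas2 and 31 in Rhag, and read on the opposite strand in all of them. The sixth promoter, that of Gata1, held no GATA motif of these letters in this window. The CACC box was present in 3 of 6 (Alas2, Epor and Gata1), against 45.9% of all promoters, and the E-box (CANNTG), the word bound by Tal1 and its partners, in 3 of 6 (Epor, Klf1 and Gata1), against 66.2%. No site of one of these motifs overlapped a site of another in the 6 promoters, though CACC boxes could overlap each other. Ermap and Epor, which were called in opposite directions, thus both held a GATA motif. A match to these letters is a description and not a measured binding site.

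Slc4a1, the anion exchanger of the red cell membrane, was measured by 3 probe sets. The brightest, 1434502_x_at, had signals of 3592.7, 4113.9 and 3290.5 at 7 weeks and of 991.6, 921.8 and 943.4 at 36 weeks. Every array of 36 weeks was below every array of 7 weeks, and the mean signal was 3.85-fold lower, with an adjusted p of 1.71e-06 by limma. The ages did not overlap in 47.8% of all tested probe sets, 23.7% higher and 24.1% lower at 36 weeks. Probe sets whose names end in _x_at can bind transcripts of related genes, so its identity is less certain.

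The second Slc4a1 probe set, 1416464_at, had signals of 2427.9, 2164.2 and 2098.2 at 7 weeks and of 1239.5, 1653.7 and 1507.0 at 36 weeks. It was also lower on all arrays of 36 weeks, with a log2 difference of -0.59 ± 0.14 and an adjusted p of 0.00816 by limma, but by a smaller amount. The log2 ratio of 1434502_x_at to 1416464_at was 0.56, 0.91 and 0.64 at 7 weeks and -0.31, -0.81 and -0.65 at 36 weeks. The ratio changed by -1.29, and an exact two-sided permutation test of 3 arrays against 3 gave p = 0.1, the smallest value this design allows. The 2 probe sets thus shared a direction, and their ratio did not overlap between the ages. The third, 1431743_a_at, was dim, with signals from 93.0 to 309.3 at 7 weeks and from 61.6 to 222.3 at 36 weeks. Its ages overlapped, and it did not pass the filter.

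Ermap, the erythroid membrane protein, had signals of 1703.9, 1831.8 and 1311.9 at 7 weeks and of 756.4, 643.1 and 908.0 at 36 weeks. The ages did not overlap, and the mean fell 2.10-fold from 1615.9 ± 270.9 to 769.2 ± 132.9 (SD, n = 3). The adjusted p was 0.0021 by limma. With the pairwise rule of the design text, taken here to need at least a 1.5-fold difference of the same sign in each of the 9 comparisons between ages, Ermap was not called, nor was 1416464_at of Slc4a1, while 1434502_x_at was.

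Rhag, the Rh-associated channel protein, had signals of 444.8, 731.2 and 460.7 at 7 weeks and of 351.6, 370.0 and 323.2 at 36 weeks. The array of 7 weeks with the replicate number 2 stood above the other 5, and the ages did not overlap. Its mean of 545.6 at 7 weeks and 348.3 at 36 weeks lay below the array medians, which ran from 766.3 to 859.4, and it did not pass the filter. With no filter its log2 difference was -0.55 with an adjusted p of 0.27 by limma. All 3 membrane genes, Slc4a1, Ermap and Rhag, thus had a lower mean at 36 weeks, of which Slc4a1 and Ermap passed the test.

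Epor, the receptor that carries the survival signal of erythropoietin, had signals of 1597.3, 1669.6 and 1446.5 at 7 weeks and of 2186.7, 2090.7 and 1973.0 at 36 weeks. All arrays of 36 weeks were above all arrays of 7 weeks, and the mean was 1.33-fold higher, with an adjusted p of 0.0287 by limma. The call was near the threshold. It was lost with each array centred on its median (adjusted p of 0.0938 by limma), and without replicate 1 or 3 of 7 weeks (0.0549 and 0.0829) or replicate 1 or 2 of 36 weeks (0.0872 and 0.0683), and under the pairwise rule. Its direction was the same in each of these.

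Alas2, the first enzyme of erythroid haem synthesis, had signals of 6221.2, 5478.3 and 5514.0 at 7 weeks and of 6324.7, 7209.6 and 6797.2 at 36 weeks. The groups did not overlap, but the highest array of 7 weeks and the lowest of 36 weeks were only 1.02-fold apart. The log2 difference was 0.24 ± 0.09 with an adjusted p of 0.0621 by limma, and its 95% interval ran from 0.04 to 0.44. The interval, which is not adjusted for the number of tests, ends at a 1.35-fold rise. The threshold was passed with quantile normalization (0.0354) and without replicate 1 of 7 weeks (0.0428). With median centring the difference was 0.14, with an adjusted p of 0.286.

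Klf1, the erythroid transcription factor, had signals of 761.3, 740.3 and 919.0 at 7 weeks and of 970.8, 1274.3 and 941.8 at 36 weeks. The ages were separated only narrowly, since the lowest array of 36 weeks was 1.02 times the highest of 7 weeks. The log2 difference of 0.37 had a 95% interval from -0.06 to 0.80 and an adjusted p of 0.173 by limma. A 1.75-fold rise and a small fall were therefore both within the interval. Without replicate 2 of 36 weeks the difference was 0.24, with an adjusted p of 0.444.

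Gata1, the factor that directs erythroid, megakaryocyte, mast cell and eosinophil development, had signals of 852.7, 906.2 and 1318.9 at 7 weeks and of 1204.1, 1147.8 and 739.1 at 36 weeks. Here the ages overlapped, with 4 of 9 pairs higher at 36 weeks. Its means of 1025.9 ± 255.1 and 1030.3 ± 253.8 (SD, n = 3) differed by less than the spread between arrays. The 95% interval of the log2 difference was -0.52 to 0.52, so changes of up to 1.44-fold lay within it.

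**Figure D2:**
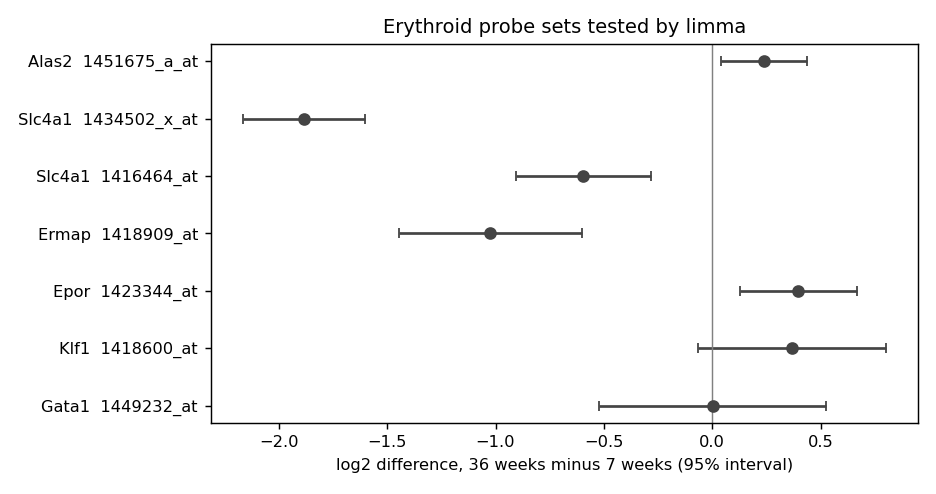
Log2 difference, 36 weeks minus 7 weeks (horizontal axis), of the 7 tested erythroid probe sets, with the 95% interval from limma as bars. The intervals of both Slc4a1 probe sets and Ermap lie below 0, those of Epor and Alas2 lie above 0, and those of Klf1 and Gata1 include 0.

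Centring an array moves all its log2 values alike, so ratios between members within an array are left as they are. Within each array the ratio of Alas2 to Slc4a1 (1434502_x_at) changed by 2.12 on the log2 scale, from 0.78, 0.41 and 0.74 at 7 weeks to 2.61, 2.90 and 2.79 at 36 weeks. Against the second Slc4a1 probe set it changed by 0.83, from 1.34, 1.32 and 1.37 to 2.31, 2.09 and 2.14. The ratio of Alas2 to Ermap changed by 1.26 and that of Ermap to Epor by -1.42, and in both the arrays of 36 weeks lay apart from those of 7 weeks. The ratio of Alas2 to Epor changed by -0.16 and that of Epor to Klf1 by 0.03, and in both the ages overlapped. All 21 ratios between the 7 tested probe sets were compared, and 13 reached the smallest p that an exact two-sided permutation test of 3 against 3 allows, 0.1, which is 0.162 after adjustment over the 21. Each of the 13 includes an Slc4a1 probe set or Ermap, so they are not separate observations. The share among ratios of other probe sets was not computed. With the permutation test no ratio of 3 arrays against 3 can pass, so the ratios are given as values.

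**Figure D3:**
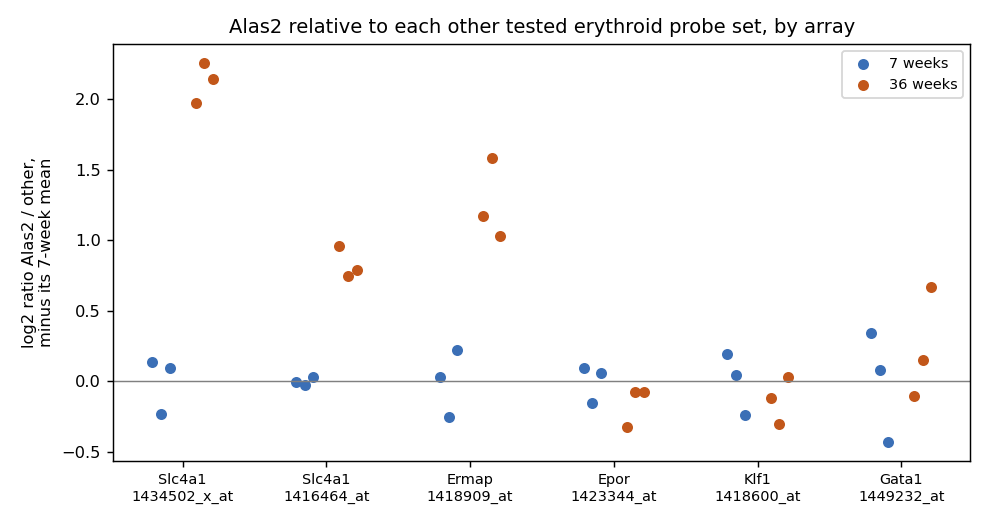
Log2 ratio of Alas2 to each other tested erythroid probe set on each array (vertical axis), minus the mean of that ratio at 7 weeks, with blue points for 7 weeks and orange points for 36 weeks. The ratios to both Slc4a1 probe sets and to Ermap are higher on all 3 arrays of 36 weeks, and the ratios to Epor, Klf1 and Gata1 overlap between the ages.

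The wider red cell programme was read from 6 lists, each gene at its brightest tested probe set. Of 83 tested genes 20 were called higher and 13 lower, or 24.1% and 15.7%, beside 17.5% and 17.6% (35.1% in all) of the 8555 tested genes. The median log2 difference was 0.01 over these lists and 0.02 over all tested genes. As deposited the arrays shared a trimmed mean. Centring each array on its median instead moved the median of all tested probe sets from 0.02 to -0.08 and the share of calls that were higher from 48.6% to 36%. The red cell lists then had 14 genes higher and 15 lower, and with quantile normalization 18 higher and 14 lower. Their counts moved with the scaling, and so did those of all probe sets. With median centring 1738 of all 4826 calls were higher. Of the 20 higher calls 3 (Hebp1, Nfe2 and Myb) were of genes below the signal cut at 7 weeks, which were tested only because they were high at 36 weeks.

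Haemoglobin genes are named here only from probe sets with 1 symbol, and 6 such genes were measured. The 691 probe sets with several symbols were not used, so any that are shared between globin genes are left out. The brightest, 1427865_at of the adult beta chain Hbb-b2, had signals of 1889.9, 2294.9 and 2236.6 at 7 weeks and of 1951.8, 2013.9 and 1908.6 at 36 weeks, with a log2 difference of -0.12 and an adjusted p of 0.476 by limma. A second Hbb-b2 probe set, 1427866_x_at, fell from a mean of 989.9 to 429.6, with a log2 difference of -1.11 ± 0.26 and an adjusted p of 0.00855 by limma. Globin genes are near-identical copies, so the gene behind either value is uncertain. The embryonic chains were below the cut. Hba-x had means of 458.1 and 399.4 at 7 and 36 weeks, the brightest probe set of Hbb-bh1 311.0 and 287.1, and the 3 probe sets of Hbb-y 7.77 to 56.8 at 7 weeks. The adult alpha chains Hba-a1 and Hba-a2 had means of 268.5 and 298.0 at 7 weeks and of 364.8 and 251.0 at 36 weeks, with overlapping ages, and were not tested. Hba-a1 ran from 64.0 to 629.5 over the arrays of 7 weeks alone. These dim values do not show whether adult alpha globin was low in the tissue.

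Genes of haem synthesis and transport went both ways. Of 15 tested, 2 were higher and 3 lower, with a median of -0.02. Tfrc, the transferrin receptor that brings iron into precursors, fell from 9636.4 ± 300.4 to 4593.4 ± 36.6 (SD, n = 3), a log2 difference of -1.06 ± 0.07, although a dimmer probe set, 1422966_a_at, overlapped between the ages. Alad, the enzyme of the second step of haem synthesis, fell by 1.04 ± 0.10 on the log2 scale, and Slc25a37, the mitochondrial iron carrier, by 0.70 ± 0.21. Hebp1, a haem-binding protein, rose by 1.54 ± 0.36 (adjusted p of 0.0182 by limma with no filter), and Alas1, which starts haem synthesis outside the red cell line, by 0.50 ± 0.13. Fech, which inserts the iron, had a log2 difference of -0.00 at its brightest probe set, while a dimmer one, 1449181_at, fell by 0.50. Tfrc and Alad are made in most cell types.

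The membrane and skeleton list had 8 of 17 tested genes higher and 2 lower (47.1% and 11.8%), with a median of 0.24. Cd47, the surface protein that tells macrophages not to engulf a cell, rose by 0.62 ± 0.08, and Cd44, an adhesion receptor, by 1.09 ± 0.14. Both are also present on leukocytes. Ank1, the ankyrin that Slc4a1 binds in the red cell, rose from 5750.0 ± 233.0 to 10559.9 ± 2219.1 (SD, n = 3), and Sptb, the beta spectrin beneath the membrane, from 1102.9 ± 124.8 to 1579.1 ± 199.2, opposite to Slc4a1 itself. Ank1 and Sptb are also expressed in brain and muscle, and both were named after their values were seen. Tmod1, the cap of the short actin filaments, fell by 1.52 ± 0.16, and Aqp1, a water channel, by 0.60 ± 0.11. Tmod1 is abundant in muscle and Aqp1 in fibrocytes and vessels. Gypc and Rhd, also membrane proteins of the red cell, had log2 differences of -0.32 and -0.22 that did not pass. Epb42, a partner of Slc4a1 in the red cell, was close to the bottom of the scale on both probe sets, with means of 74.5 and 135.5 at 7 weeks and of 56.0 and 105.6 at 36 weeks.

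Of 18 tested transcription factors and partners 3 were higher and 2 lower, with a median of 0.01. Nfe2, which drives globin genes and platelet release, rose by 1.63 ± 0.22, Lyl1, a factor of blood progenitors, by 1.04 ± 0.13 and Myb, a factor of immature blood cells, by 1.24 ± 0.18. With no filter Nfe2 and Myb had adjusted p-values of 0.00088 and 0.00158 by limma. All 3 are also expressed in granulocyte or megakaryocyte precursors. Foxo3, which limits oxidative stress in maturing red cells and in many other tissues, fell by 0.64 ± 0.14 at its brightest probe set (a dimmer one, at -0.16, did not pass), and Nfe2l2, an activator of antioxidant genes, by 0.37 ± 0.11. The direct partners of Gata1 did not pass. Zfpm1, its cofactor, had a log2 difference of -0.43, Tal1 of 0.32 and Lmo2 of 0.03. Gata2, a related GATA factor, had one of -0.22 that did not pass either. Gfi1b, a repressor of this lineage, was dim, with means of 229.8 and 163.3.

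In the list of erythropoietin and stem cell factor signalling 3 of 16 tested genes were higher and 2 lower, with a median of 0.01, beside the rise of Epor. Pim1, a survival kinase, rose by 0.77 ± 0.15, Kit, the stem cell factor receptor, by 0.44 ± 0.13 and Ptpn6, a phosphatase that switches off Epor and is abundant in all leukocytes, by 0.70 ± 0.23. Socs2, a feedback inhibitor, fell by 0.76 ± 0.15 and Bcl2l1, the survival protein of late precursors, by 0.55 ± 0.15. Second probe sets of Pim1 and Bcl2l1 did not pass, at 0.64 and 0.21, the latter opposite in sign. The signal carriers Jak2 and Stat5b had log2 differences of -0.16 and 0.14, and Cish, a target of the pathway, of -0.12, none past the threshold.

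Red cell enzymes and late genes divided evenly, with 4 of 16 tested higher and 4 lower and a median of -0.01. Car2, a carbonic anhydrase that is also abundant in other cells, fell by 0.81 ± 0.08, and Xpo7, a nuclear transport factor, by 0.69 ± 0.10. Prdx2 and Cat, which remove peroxide, fell by 0.49 and 0.54. Rap1gap, a regulator of small GTPases, rose by 0.80 ± 0.09, Isg20, an exonuclease, by 0.66 ± 0.13 and Gpx1, a glutathione peroxidase, by 0.42. The fourth that rose was Tmcc2, by 0.31. Second probe sets of Xpo7 and Tmcc2 did not pass, at -0.03 and 0.08. Car1, the carbonic anhydrase most typical of the red cell, was not tested, with dim means of 112.1 at 7 weeks and 283.5 at 36 weeks. Its ages did not overlap, with signals from 104.6 to 120.2 at 7 weeks and, higher, from 244.6 to 319.2 at 36 weeks.

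**Figure D4:**
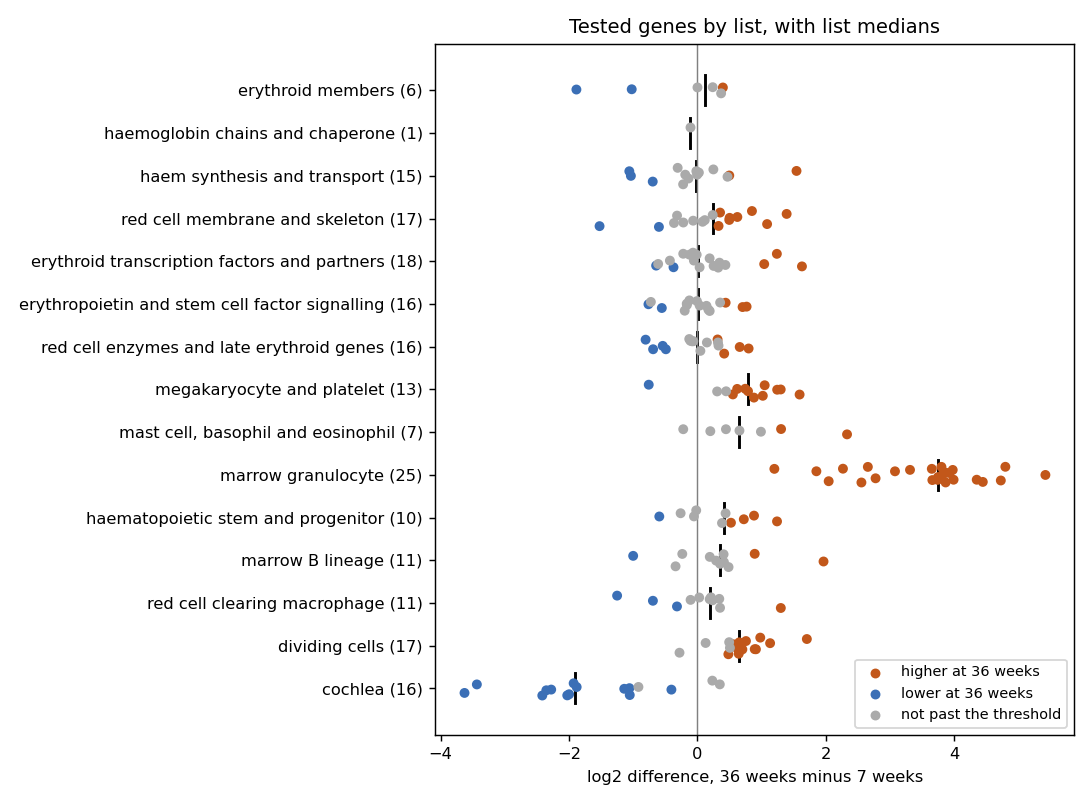
Log2 difference, 36 weeks minus 7 weeks (horizontal axis), of each tested gene at its brightest probe set, by list, with the number tested in brackets, orange for called higher, blue for called lower, grey for not past the threshold and a black bar for the list median. The erythroid members lie between -1.89 and 0.40, the marrow granulocyte genes all lie above 1 with a median of 3.75, and the cochlea markers have a median of -1.90.

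All 25 tested genes of the marrow granulocyte list were called higher (beside 17.5% of all tested genes), with log2 differences from 1.20 to 5.42. The list was chosen with earlier results of these data known, so its count is a description and not a test. Of the 25 genes, 7 were below the cut at 7 weeks and passed it only through 36 weeks, and all 7 were also called with no filter. S100a9, an alarmin of neutrophils, and Ltf, lactoferrin, rose by 3.74 and 3.65. The mean log2 signal of the list was 10.40, 10.35 and 10.39 at 7 weeks and 13.89, 13.88 and 13.88 at 36 weeks. Over the 6 tested members the same mean was 10.90, 10.93 and 10.91 at 7 weeks and 10.62, 10.64 and 10.53 at 36 weeks. The lower mean of the members rested on Slc4a1, taken here at 1434502_x_at. Without it the mean over the other 5 was 10.71, 10.72 and 10.75 at 7 weeks and 10.74, 10.78 and 10.64 at 36 weeks, which overlap, and the median log2 difference of the 6 members was 0.12. The summed signal of the granulocyte list was 10.5-fold higher at 36 weeks, while that of the members ran from 14262 to 15471 at 7 weeks and from 12626 to 13657 at 36 weeks. Without Slc4a1 that sum ran from 10971 to 11581 at 7 weeks and, higher, from 11682 to 12736 at 36 weeks. The largest part of this sum was Alas2, which was not called and had means of 5737.8 and 6777.2. The higher sum is therefore not a trait of the remaining members as a group.

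Megakaryocytes, the platelet-forming cells, share Gata1 and a common precursor with red cells. Of 13 tested megakaryocyte and platelet genes 10 were higher and 1 lower (76.9% and 7.69%), with a median of 0.79. Of the 10, Rgs18, a regulator of G-protein signalling, passed the cut only through 36 weeks and was not called with no filter (adjusted p of 0.0503 by limma). Ppbp, a platelet chemokine, had signals of 2141.7, 2489.6 and 2334.5 at 7 weeks and of 7529.1, 7693.8 and 6159.3 at 36 weeks. Pf4, platelet factor 4, went from a mean of 4134.5 ± 515.0 to 10236.5 ± 1194.2 (SD, n = 3). Both were higher on all arrays of 36 weeks, with log2 differences of 1.59 ± 0.11 and 1.30 ± 0.11. Gng11, a G-protein subunit found in many cells, was the gene of this list that fell, by 0.76 ± 0.13.

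Marker genes of dividing cells and of the cochlea also differed in signal between the ages. Of 17 tested cell division genes 13 were higher (76.5%, beside 17.5% of all tested genes). Among them Rrm2 and Plk1 had the smallest p-values, with log2 differences of 0.70 and 1.13. Of the 13, 4 passed the cut only through 36 weeks, Plk1 among them, and 3 of these 4, again with Plk1, were called with no filter. Of 19 cochlea markers with a probe set 16 were bright enough to test, and 13 of these were lower (81.2%, beside 17.6% of all tested genes). Of the lower markers 3 were below the cut at 36 weeks, and all 3 were also called with no filter. Otos and Epyc had the smallest p-values, with -2.42 and -3.63, and the summed signal of the list went from 264529 to 272373 at 7 weeks down to 68764 to 71688 at 36 weeks. The list for macrophages that nurse and clear red cells had 1 of 11 tested genes higher, Slc40a1, the iron exporter, by 1.30 ± 0.17. In that list 3 were lower, namely Mertk by 1.25, Vcam1 by 0.69 and Fth1 by 0.32. These are 9.09% and 27.3%, beside 17.5% and 17.6% of all tested genes, and the median of the list was 0.19. Whether changes in other cell types had a part in the falls of Slc4a1 and Ermap was not tested.

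The genes whose course over the 6 arrays was nearest to Alas2 and to Slc4a1 were sought among 8549 tested genes, by the root mean square distance between log2 profiles, each set to 0 at its own mean of 7 weeks. Nearest to Alas2 were Timp1, Mprip, Arhgap1, Agap3 and Galt, at distances of 0.03 to 0.04, with log2 differences from 0.20 to 0.23, none past the threshold. Nearest to Slc4a1 (1434502_x_at) were Dbp, a clock output factor, at 0.04, Gjb2, a connexin of cochlear gap junctions, at 0.05, Hhatl and Slc12a7 at 0.09 and 0.10, and Coch, the matrix protein cochlin, at 0.10. Their log2 differences ran from -1.96 to -1.79. None of these 10 is in the 6 red cell lists, and Gjb2 and Coch are cochlea markers. Since the 6 arrays fall into 2 ages, such a distance mostly reads the size of the difference between the ages.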

How the data were processed

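Total RNA of cochlea, isolated with TRIzol, was made into biotin-labelled cRNA for Affymetrix arrays, per the labels' protocols. The authors deposited 1 linear signal intensity for each probe set, with software not given in the sources used here. Means of the 6 arrays, trimmed of the 2% at the bottom and everything past the 98th percentile, lay between 1489.8 and 1492.5, so the arrays share a scale whose absolute unit is unknown. Names came from the platform's annotation, in which 20380 probe sets had 1 symbol, 691 several and 1555 none. The number of arrays limits the precision.

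Fits used limma 3.58.1 in R 4.3.3, and plots matplotlib 3.10.9 in Python 3.11.15. Values of log2(signal + 50), on which dim probe sets show too small a change, were fitted with lmFit and eBayes (intensity trend), unpaired and two-sided, over all 13575 tested probe sets. All adjusted p-values are limma's with Benjamini-Hochberg adjustment. On simulated data with 200 of 13575 probe sets changed, 51% of log2 changes of 1 and 13% of 0.5 were recovered, with 2 false calls in 66. In the real data 4665 probe sets were called. The adjustment is milder when more probe sets change, so these rates do not carry over to the real data. The members and lists were chosen with earlier results of these data known. Genes named are all members, the haemoglobin chains, per list up to 2 higher and 2 lower with the smallest p, and the 5 nearest profiles of Alas2 and Slc4a1. Genes named beyond this (Slc25a37, Ank1, Sptb, Gypc, Rhd, Epb42, Fech, Myb, Zfpm1, Tal1, Lmo2, Gata2, Gfi1b, Ptpn6, Jak2, Stat5b, Cish, Prdx2, Cat, Gpx1, Tmcc2, Car1, Fth1, Rgs18, Hhex and Slamf1) were chosen after their values were seen. Symbols of several genes were not used. Alternatives were other offsets (1 and 16), scalings, filters and eBayes without the trend, the replicate block, each array left out, the mean of a gene's probe sets and the pairwise rule.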

Additional observations from a re-analysis of the deposited data

How the results depend on the processing

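The 2 Slc4a1 probe sets and Ermap were past the threshold in each of the 15 alternatives that refit the model, with log2 differences from -1.99 to -1.80, -0.70 to -0.48 and -1.16 to -0.91. With the pairwise rule of 1.5-fold in all 9 pairs the counts were 1473 of all probe sets, 0 erythroid probe sets higher and 1 lower, 6 red cell list genes higher and 4 lower, and 5 megakaryocyte genes higher, since it asks for a minimum size. Erythroid probe sets called higher numbered 2 with quantile normalization and 0 with median centring, which gave 14 red cell list genes higher and 15 lower. Alas2 ran from 0.14 to 0.30 and Klf1 from 0.24 to 0.46 over their alternatives. With each array left out in turn, 0 to 1 erythroid probe sets were called higher and 3 to 3 lower, and all calls numbered 3707 to 4083. Red cell list genes then numbered 15 to 22 higher and 10 to 13 lower, granulocyte genes called higher 25 to 25 and megakaryocyte genes 9 to 10. Granulocyte calls numbered 25 in every alternative except 22 under the filter at the 60th percentile and under that on the mean log2 value. Klf1 and Gata1 passed in none, and the sign of Gata1 varied (-0.12 to 0.21). A filter on the mean log2 value, added after seeing the data, gave 4558 calls. Same-numbered arrays did not deviate together (r of 0.05, -0.01 and -0.00 over probe sets), and not every array correlated best with its own number. With the replicate block 4375 probe sets were called, and the erythroid counts stayed at 1 higher and 3 lower.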

Other observations

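Other blood lineages that a marrow can hold were read from 3 further lists. Of 7 tested genes of mast cells, basophils and eosinophils 2 rose. These were Epx, the eosinophil peroxidase, from a mean signal of 456.4 to 1199.6, and Mcpt8, a basophil protease, from 336.1 to 1454.0, with limma adjusted p-values of 0.000647 and 0.0125. Both were below the signal cut at 7 weeks and were tested only because they were high at 36 weeks, and with no filter the adjusted p-values were 0.00189 and 0.0297. Of 10 tested genes of stem and progenitor cells 4 rose and 1 fell. Spi1, the myeloid factor PU.1 that opposes Gata1, rose by 1.24 ± 0.22 and Cebpa, a granulocyte factor, by 0.72 ± 0.15. Hlf, a transcription factor found in stem cells, fell by 0.59 ± 0.11. Hhex and Slamf1 rose too, by 0.88 and 0.52. Of 11 tested genes of the marrow B lineage 2 rose, Ighm by 1.97 ± 0.16 and Cd37 by 0.89 ± 0.18, and 1 fell, Ebf1 by 1.00 ± 0.19. A dimmer probe set of Ighm did not pass, at 0.23. The lists had medians of 0.66, 0.41 and 0.35, beside 0.02 over all tested genes. In the same order 28.6%, 40% and 18.2% of their tested genes were called higher, beside 17.5% of all tested genes. Called lower were 0%, 10% and 9.09%, beside 17.6%. The share of higher calls in the B lineage list was thus near that of all genes.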
